A study of Mus musculus with 2 samples.

Results

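The Hox cluster genes of ATDC5 cells are described here, a family of homeodomain transcription factors that are laid out in 4 chromosomal clusters, A to D, and numbered by paralog group from 1 at the anterior end to 13 at the posterior end. A gene was taken as a member when a probe set of the array carried exactly 1 gene symbol of the form Hox, cluster letter and number, and the probe set with the highest mean signal stood for it. This gave 33 genes measured by 48 probe sets, out of 18193 genes on the array and of 39 Hox genes in the RefSeq gene table. The other 6 were not analysed here.

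ATDC5 is a chondrogenic line from the mouse, which can be driven to form cartilage in culture. After serum starvation, translation was blocked with 10 µg/ml cycloheximide (CHX) for 30 min, and 100 ng/ml of recombinant human Nell-1 (CHX+Nell-1, 1 array) or PBS (CHX+PBS, 1 array) was then added for another 30 min. All cells thus carried CHX and serum starvation, and no group without CHX was compared. The comparison was made to screen for genes that answer Nell-1 without new protein. With 1 array per group, each value below belongs to 1 RNA sample, no test was possible, and no error between cultures can be given.

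HOX proteins give cells of the trunk and limbs their position along the body axis. In the embryo, genes at the anterior end of a cluster are switched on earlier and further forward than those at the posterior end, so that the set of active genes reads as an address. They bind DNA with partner homeodomain proteins of the PBX and MEIS families, and Polycomb and MLL complexes keep the clusters silent or active. In the skeleton, Hox genes shape the vertebrae, the ribs and the segments of the limb.

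The values are MAS5 signals, linear intensities that combine the probes of a probe set. No present or absent calls were used here, so a level for silent genes was taken from 84 probe sets of olfactory, vomeronasal and taste receptors. Their 95th percentile was 74.4 on the CHX+Nell-1 array and 84.4 on the CHX+PBS array, and a gene was called above the silent-gene level when it reached this value on both arrays. Probe sets differ in affinity, so signals of different genes are not an order of mRNA amounts. In bulk RNA, fewer cells that express a gene and less RNA per cell cannot be told apart.

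Of the 33 Hox genes, 17 lay above the silent-gene level on both arrays (51.5%), beside 57.9% of all 18193 genes. They were not spread evenly along the clusters. Of 16 measured genes in groups 4 to 9, 13 lay above the level, against 3 of 7 in groups 1 to 3 and 1 of 10 in groups 10 to 13. Group 9 was above it in all 4 clusters, and groups 4 and 5 in each cluster where they were measured. None of the 7 measured genes of groups 11 to 13 was above it. Clusters A and B each had 6 of 9 measured genes above the level, cluster C 3 of 7 and cluster D 2 of 8.

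**Figure D1:**
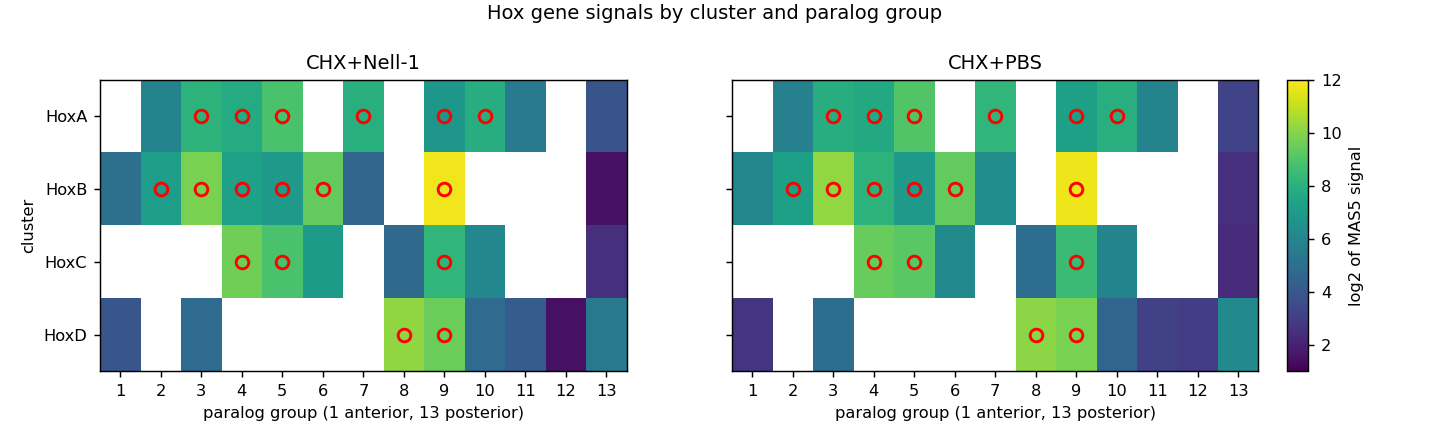
Log2 of the MAS5 signal of each Hox gene, by cluster (rows) and paralog group (columns), on the CHX+Nell-1 array (left) and the CHX+PBS array (right). Red circles mark the 17 genes above the silent-gene level on both arrays, and white squares hold no gene analysed here; the circles lie in groups 2 to 10, and groups 11 to 13 hold none.

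In cluster A, on chromosome 6, the genes above the level formed 1 block from Hoxa3 to Hoxa10 among the genes measured. Hoxa3, needed for the thymus and parathyroid, had a signal of 278 in CHX+Nell-1 cells and 232 in CHX+PBS cells. Hoxa4, a gene of cervical vertebrae, had 221 with Nell-1 and 207 with PBS. Hoxa5, which acts in the lung and at the neck to thorax transition, measured 463 with Nell-1 and 513 with PBS. These anterior and central genes were 2.45 to 6.22 times the silent-gene level of their array.

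The posterior part of the block held Hoxa7, Hoxa9 and Hoxa10. Hoxa7, a gene of the thoracic spine, had signals of 247 in CHX+Nell-1 cells and 301 in CHX+PBS cells. Hoxa9, which acts in trunk patterning and in blood progenitors, had 112 with Nell-1 and 152 with PBS. The second Hoxa9 probe set had 60.3 with Nell-1, below the level, and 94.8 with PBS, above it. Hoxa10, of the group that suppresses rib formation in the lumbar spine, had 229.9 with Nell-1 and 246 with PBS. The second Hoxa10 probe set had 33.2 with Nell-1 and 26.9 with PBS, below the level on both arrays. The place of Hoxa10 in the block thus rests on its brighter probe set. Outside the block, Hoxa2, a selector gene of the second pharyngeal arch, reached 60.2 with Nell-1 and 55.7 with PBS. Hoxa11, a gene of the forearm and uterus, had 45.8 with Nell-1 and 60.0 with PBS, and Hoxa13, a gene of the digits, had 14.6 with Nell-1 and 9.17 with PBS. All of these 3 were below the level on both arrays.

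Cluster B, on chromosome 11, held the member with the highest signal. Hoxb9, a gene of the thoracic skeleton and the mammary gland, measured 3506 in CHX+Nell-1 cells and 3386 in CHX+PBS cells, at percentiles 94.8 and 94.6 of all probe sets of the arrays. Hoxb3, of the hindbrain and pharyngeal region, had 891 with Nell-1 and 1192 with PBS. Hoxb6, whose group promotes ribs, had 665 with Nell-1 and 656 with PBS. Each of these 3 was at least 7.77 times the silent-gene level.

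The other genes of cluster B above the level had lower signals. Hoxb2, a hindbrain gene, had 141 with Nell-1 and 153 with PBS, and Hoxb5 had 124 on both arrays. Hoxb4, known for expanding blood stem cells, had 158 in CHX+Nell-1 cells and 275 in CHX+PBS cells. Below the level lay Hoxb1, a gene of the facial motor nucleus, with 33.5 with Nell-1 and 67.0 with PBS, and Hoxb13, a gene of the tail and prostate, with 2.86 with Nell-1 and 5.79 with PBS.

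Hoxb7 interrupted the run of cluster B, and its value rests on which probe set is read. Its own probe set gave 24.7 with Nell-1 and 83.2 with PBS, below the level on both arrays. A probe set annotated to both Hoxb7 and Hoxb8 gave 579 with Nell-1 and 664 with PBS, above the level, and cannot be assigned to either gene. The other 2 probe sets with several Hox symbols, shared by Hoxd3 and Hoxd4, were below the level on both arrays.

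In cluster C, on chromosome 15, only Hoxc4, Hoxc5 and Hoxc9 of the 7 measured genes were above the level. Hoxc4 had 795 in CHX+Nell-1 cells and 703 in CHX+PBS cells, and Hoxc5 had 458 with Nell-1 and 574 with PBS. Hoxc9, which specifies thoracic motor neurons, had 306 with Nell-1 and 361 with PBS. The gap between them held Hoxc8, a gene of the brachial cord and thoracic spine, with 28.1 with Nell-1 and 31.5 with PBS, well below the level. Hoxc6 lay in the same gap and changed sides between arrays, with 129 with Nell-1 and 75.4 with PBS. On the posterior side, Hoxc10 had 69.7 with Nell-1 and 63.0 with PBS, just below the level, and Hoxc13, a gene of hair and nails, had 5.55 with Nell-1 and 4.91 with PBS.

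Cluster D, on chromosome 2, had 2 genes above the level between neighbours far below it. Hoxd8 measured 1145 in CHX+Nell-1 cells and 1079.7 in CHX+PBS cells, and Hoxd9, a limb and trunk gene, measured 709 with Nell-1 and 890.3 with PBS. The next gene, Hoxd10, had 28.8 with Nell-1 and 24.2 with PBS, and on the other side Hoxd3 had 29.1 with Nell-1 and 31.2 with PBS. Both flanking genes were at less than 0.4 times the silent-gene level, while Hoxd8 and Hoxd9 were at 9.52 to 15.4 times. Hoxd1, Hoxd11 and Hoxd12 ranged from 2.84 to 18.6 with Nell-1 and from 6.32 to 8.90 with PBS. Hoxd13, the main digit gene of this cluster, had 43.3 with Nell-1 and 75.5 with PBS, and its second probe set had 21.4 with Nell-1 and 4.92 with PBS.

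**Figure D2:**
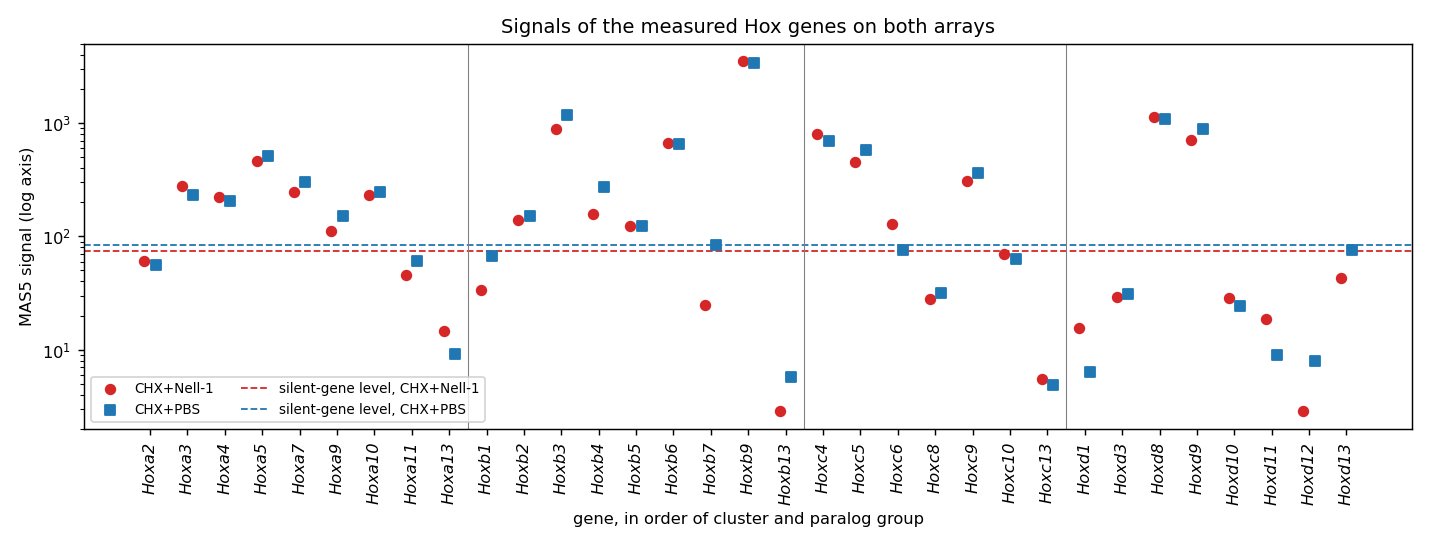
MAS5 signal (log axis) of the 33 measured Hox genes on the CHX+Nell-1 array (red circles) and the CHX+PBS array (blue squares), in order of cluster A to D and paralog group, with the silent-gene level of each array as a dashed line. Hoxb9 is highest on both arrays, and Hoxd8 and Hoxd9 stand between genes that lie below the lines.

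Along all 4 clusters, 18 of 29 pairs of neighbouring measured genes were on the same side of the level, with genes not measured skipped. By cluster these were 6 of 8 in A, 4 of 8 in B, 3 of 6 in C and 5 of 7 in D. The share for genes without any order along a cluster was not computed. The borders on the posterior side lay between Hoxa10 and Hoxa11, Hoxb9 and Hoxb13, Hoxc9 and Hoxc10, and Hoxd9 and Hoxd10. Genes just inside the level were Hoxa9, at 1.51 times it with Nell-1 and 1.80 times with PBS, and Hoxb5, at 1.66 times with Nell-1 and 1.47 times with PBS. Just outside it were Hoxc6, at 1.73 times with Nell-1 and 0.894 times with PBS, and Hoxc10, at 0.937 times with Nell-1 and 0.746 times with PBS. Hoxb7 was near the level with PBS only, at 0.986 times, and was at 0.332 times with Nell-1. At the stricter 99th percentile of the receptor probe sets, 161 with Nell-1 and 109 with PBS, Hoxa9, Hoxb2, Hoxb4 and Hoxb5 dropped out, which left 13 genes and 3 rather than 6 in cluster B.

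The promoters on each side of the posterior border are shown for clusters A and D, where the table of sequences held both neighbours, together with that of Hoxb4, whose signal differed most between the arrays among the genes above the level. Each is the stretch of 250 bases before the gene's outermost start, from RefSeq in build GRCm38.p6. It is read 5′ to 3′ on the strand of the gene, with CG dinucleotides in capitals. The positions are chr6:52240855-52241104, minus strand, for Hoxa10, chr6:52245811-52246060, minus strand, for Hoxa11, chr2:74697513-74697762, plus strand, for Hoxd9, chr2:74691641-74691890, plus strand, for Hoxd10, and chr11:96318017-96318266, plus strand, for Hoxb4.
Hoxa10: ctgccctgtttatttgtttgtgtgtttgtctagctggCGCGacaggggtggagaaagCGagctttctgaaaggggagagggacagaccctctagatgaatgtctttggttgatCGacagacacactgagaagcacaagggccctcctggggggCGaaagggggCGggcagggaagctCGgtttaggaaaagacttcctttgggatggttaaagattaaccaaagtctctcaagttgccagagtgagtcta
Hoxa11: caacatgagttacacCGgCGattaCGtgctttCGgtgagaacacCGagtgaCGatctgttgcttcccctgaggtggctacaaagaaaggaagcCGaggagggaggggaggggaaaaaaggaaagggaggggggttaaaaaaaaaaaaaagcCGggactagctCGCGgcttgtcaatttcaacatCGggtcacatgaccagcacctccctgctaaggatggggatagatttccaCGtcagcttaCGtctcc
Hoxd9: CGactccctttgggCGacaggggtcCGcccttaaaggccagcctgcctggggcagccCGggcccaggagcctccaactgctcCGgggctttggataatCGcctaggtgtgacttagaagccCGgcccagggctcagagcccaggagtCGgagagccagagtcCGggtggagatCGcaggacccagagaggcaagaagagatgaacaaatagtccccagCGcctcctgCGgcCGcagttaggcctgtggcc
Hoxd10: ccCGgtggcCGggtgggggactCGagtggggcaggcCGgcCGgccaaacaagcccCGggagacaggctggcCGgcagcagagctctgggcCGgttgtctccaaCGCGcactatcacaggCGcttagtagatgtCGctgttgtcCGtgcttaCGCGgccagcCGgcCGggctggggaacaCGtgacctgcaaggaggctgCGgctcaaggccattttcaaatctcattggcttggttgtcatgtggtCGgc
Hoxb4: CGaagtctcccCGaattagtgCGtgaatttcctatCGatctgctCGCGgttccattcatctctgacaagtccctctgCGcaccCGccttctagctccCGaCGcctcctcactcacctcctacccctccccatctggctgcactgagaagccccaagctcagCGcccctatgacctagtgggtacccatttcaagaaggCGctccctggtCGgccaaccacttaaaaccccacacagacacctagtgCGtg

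These stretches held 7 CG dinucleotides at Hoxa10 and 13 at Hoxa11, 13 at Hoxd9 and 20 at Hoxd10, and 14 at Hoxb4. In both of these posterior border pairs the gene below the level had more CG than its neighbour above it. Over windows of 300 bases that include 50 bases after the start, 19 measured Hox genes were matched. In cluster A, Hoxa2, below the level, had 9 CG and Hoxa3, above it, had 20. The outermost start of Hoxa3 lies between those of Hoxa5 and Hoxa7, so its window is not at the border with Hoxa2. At the anterior border of cluster D, Hoxd3, below the level, had 20 CG and Hoxd8, above it, had 6. The median was 12 CG (range 4 to 29) for the 9 above the level and 17.5 (range 4 to 45) for the 10 not above it, ranges that overlap, beside 7 for all 27025 promoters in the table. The GC box GGGCGG, searched on both strands, was in 4 of the 9 windows above the level and 3 of the 10 others, against 35.9% of all promoters. The CCAAT box, spelled CCAAT, was in 3 of 9 and 8 of 10, against 38.0% of all promoters. The TATA box, spelled TATAAA, was in 0 of 9 and 1 of 10, the one being Hoxd13, against 14.2% of all promoters. The HOX and PBX motif TGATNNAT was in 0 of 9 and 2 of 10, Hoxa2 and Hoxb1, against 9.02%. A match describes the letters in the window and not a site in use.

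Between the arrays, Hox genes differed little. Of the 17 genes above the silent-gene level, none was at least 1.5-fold higher with Nell-1, the threshold the submitters state, and 1, Hoxb4, was at least 1.5-fold lower. Among all 10531 genes above the level, 3.36% were at least 1.5-fold higher and 4.69% at least 1.5-fold lower, so 1 of 17 lies near the background. The median log2 ratio of CHX+Nell-1 over CHX+PBS was -0.12 over the 17 Hox genes and -0.03 over all genes above the level. The median size of the log2 ratio, without sign, was 0.18 for the Hox genes and 0.20 for all of them.

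Hoxb4 had a log2 ratio of -0.80, 1.74-fold lower with Nell-1, on its brighter probe set. The robust SD of log2 ratios among probe sets of similar signal, from the median absolute deviation, was 0.43 there. The second Hoxb4 probe set measured 71.0 with Nell-1 and 79.3 with PBS, a log2 ratio of -0.16, and lay just below the silent-gene level on both arrays. The 2 probe sets thus had the same sign and different sizes.

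Another 3 genes differed by more than the robust SD at their signal without reaching 1.5-fold. They were Hoxa9 at -0.44, Hoxb3 at -0.42 and Hoxd9 at -0.33, all lower with Nell-1. The other 13 of the 17 were within it, and for all genes above the level the share within it was 68.1%. The highest log2 ratios were 0.26 for Hoxa3 and 0.18 for Hoxc4. Hoxd8 was at 0.08, Hoxb9 at 0.05 and Hoxb6 at 0.02.

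**Figure D3:**
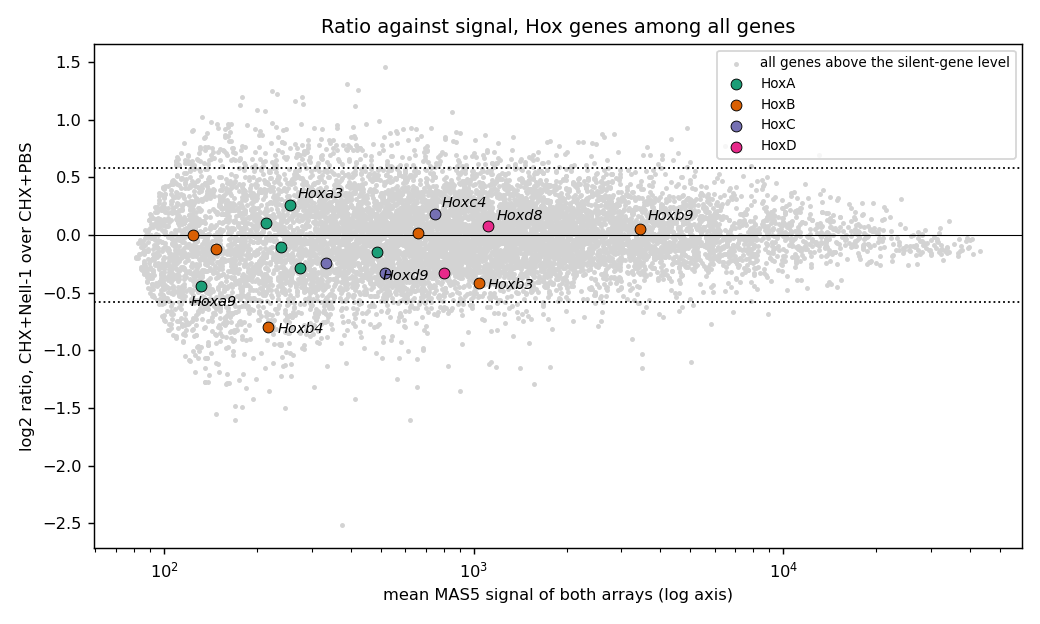
Log2 ratio of CHX+Nell-1 over CHX+PBS against the mean MAS5 signal (log axis) for the 10531 genes above the silent-gene level (grey) and the 17 Hox genes among them, coloured by cluster. Dotted lines mark 1.5-fold either way; Hoxb4 is the 1 Hox gene beyond them, at -0.80.

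Both directions occurred within clusters and within paralog groups. By cluster, the median log2 ratio of the genes above the level was -0.12 in A, -0.06 in B, -0.24 in C and -0.12 in D. In cluster A, Hoxa3 and Hoxa4 were above 0 and Hoxa5, Hoxa7, Hoxa9 and Hoxa10 below it. In paralog group 4, Hoxb4 was at -0.80 while Hoxa4 was at 0.10 and Hoxc4 at 0.18. In group 9, Hoxa9 was at -0.44, Hoxc9 at -0.24, Hoxd9 at -0.33 and Hoxb9 at 0.05. Of the 17 genes, 11 were below 0 on the log2 scale and 6 above it. Among all 10531 genes above the level, 5647 were below 0 and 4884 above it.

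The 16 Hox genes not above the level gave larger ratios in both directions. Of these, 4 were at least 1.5-fold higher and 5 at least 1.5-fold lower with Nell-1. Among all 7662 genes not above the level, 26.5% were at least 1.5-fold higher and 38.7% at least 1.5-fold lower, so the Hox counts do not exceed the background. Hoxb7 (-1.75), Hoxd12 (-1.49) and Hoxd1 (1.28) had the largest log2 ratios. Their signals were below the level on both arrays. The robust SD of the log2 ratio at their signal was 0.93 for Hoxb7, 1.18 for Hoxd12 and 1.85 for Hoxd1. Hoxb7 and Hoxd12 thus differed by more than it, and Hoxd1 by less.

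Genes with several probe sets gave more than 1 reading of each RNA sample. Of 11 such Hox genes, 6 had at least 2 probe sets above the level, and in 2 of the 6, Hoxb3 and Hoxd8, these had the same sign. Hoxa5 was at -0.15 on its brighter probe set. On its other probe set it measured 343 with Nell-1 and 281 with PBS, a log2 ratio of 0.29. Hoxc5 was at -0.33 on its brightest and at 0.30 on the second. For Hoxa3 the pair gave 0.26 and -0.07, and for Hoxa4 it gave 0.10 and -0.21. The sign of ratios of this size therefore differed between probe sets of the same gene in 4 of 6 cases.

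Hoxc6, a gene of forelimb level identity, had 3 probe sets and none above the level on both arrays. Their signals were 129 with Nell-1 and 75.4 with PBS, 107 with Nell-1 and 52.1 with PBS, and 29.3 with Nell-1 and 108 with PBS. The log2 ratios were 0.77, 1.04 and -1.88, so the probe sets went opposite ways.

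**Figure D4:**
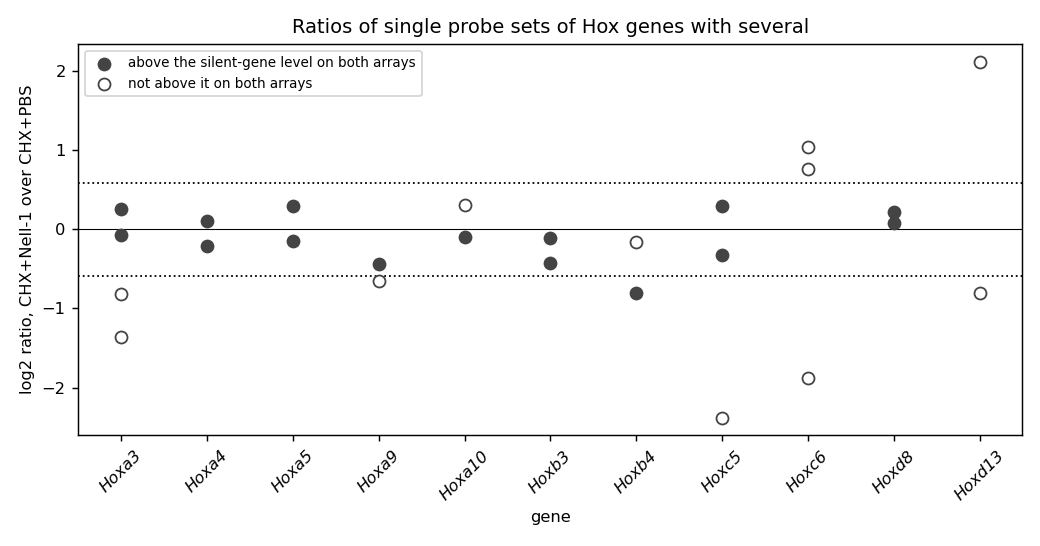
Log2 ratio of CHX+Nell-1 over CHX+PBS for every probe set of the 11 Hox genes with more than 1, filled where the probe set was above the silent-gene level on both arrays and open elsewhere. Filled points lie between -0.80 and 0.30, and open points reach -2.38 and 2.12.

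The DNA-binding partners of HOX proteins were mostly above the level. Of 8 measured, 7 were, beside 57.9% of all genes. None was at least 1.5-fold higher with Nell-1 and 1 was at least 1.5-fold lower, beside 3.36% and 4.69% of all genes above the level. That one was Meis3, at 86.6 with Nell-1 and 170 with PBS, a log2 ratio of -0.97 on its only probe set. Its signal with Nell-1 was just above the level of 74.4. Pbx3 had 2420.1 with Nell-1 and 2503 with PBS, and Meis1 had 914 with Nell-1 and 958 with PBS, both near 0 in log2 ratio at -0.05 and -0.07. Pbx2 was at -0.37 on its brightest probe set, and 2 of its 3 probe sets were at least 1.5-fold lower. Meis2 was at 0.18 and Pknox2 at 0.21. Pbx4 was below the level on both arrays.

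Chromatin regulators of the clusters were all above the level where measured, beside 57.9% of all genes. Of 10 genes of Polycomb repressive complex 2 and its partners, which place the silencing mark on histone H3, none reached 1.5-fold on its brightest probe set. Their median log2 ratio was 0.19, led by Eed at 0.56 and the methyltransferase Ezh2 at 0.53, with signals of 3289 with Nell-1 and 2277 with PBS for Ezh2. The robust SD among probe sets of similar signal was 0.28 for Eed and 0.21 for Ezh2. Jarid2 was at 0.35. Suz12 was at 0.24 on its brightest probe set, although 2 of its 3 probe sets above the level were at least 1.5-fold higher. The other way, 1 probe set of Ezh1 and 1 of Aebp2 above the level were at least 1.5-fold lower. Of 12 genes of Polycomb repressive complex 1, 1 was at least 1.5-fold lower, beside 4.69% of all genes above the level. It was Cbx7, with 79.1 with Nell-1, just above the level of 74.4, and 151 with PBS. Only 1 of the 3 Cbx7 probe sets was above the level on both arrays. The median of the 12 genes was -0.20, with Cbx8 and Phc1 at -0.45 and Phc3 at 0.46. Of 13 genes of the MLL complexes and related activators none reached 1.5-fold on its brightest probe set, and the median was -0.02. Kmt2b was at -0.45, Kdm6a, a demethylase that removes the Polycomb mark, at -0.26, Dot1l at 0.22 and Men1 at -0.19. Of the other probe sets above the level, 1 of Kdm6a and 1 of Wdr5 were at least 1.5-fold higher. The other way, 1 of Men1 was at least 1.5-fold lower.

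**Figure D5:**
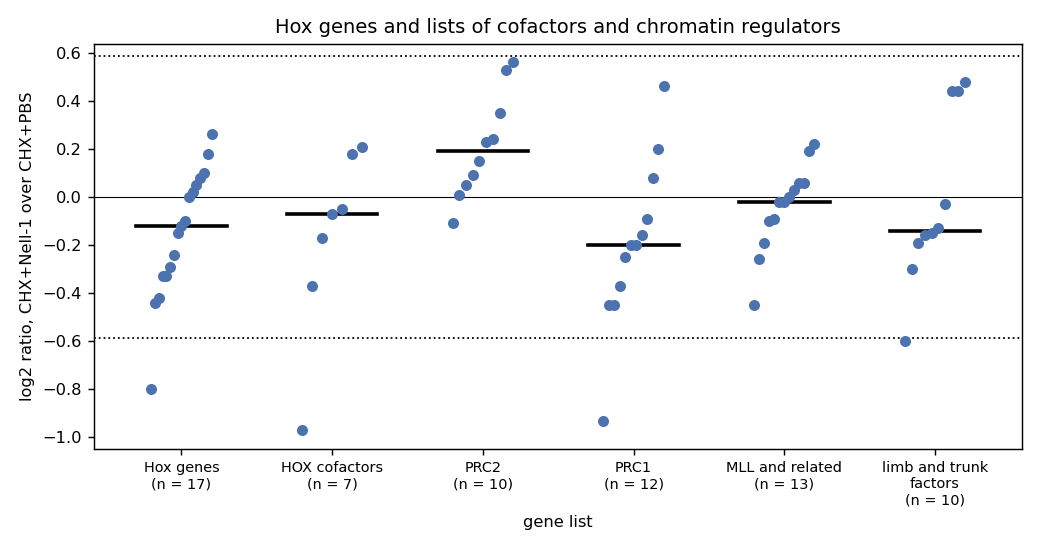
Log2 ratio of CHX+Nell-1 over CHX+PBS for genes above the silent-gene level, as 1 point per gene with the median as a bar, for Hox genes, HOX cofactors, Polycomb repressive complexes 2 and 1, MLL and related genes, and limb and trunk factors. Dotted lines mark 1.5-fold; the medians run from -0.20 to 0.19.

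The list of inputs to Hox genes held CDX factors and retinoid receptors, among others. Of 13 measured genes of this list, 4 were above the level, beside 57.9% of all genes. None of the CDX factors was among the 4. Rarg, a retinoic acid receptor, had 1153 with Nell-1 and 1463 with PBS, a log2 ratio of -0.34. Its partners Rxra and Rxrb were at -0.30 and -0.24. The receptors Rara (30.7 with Nell-1 and 175 with PBS), Rarb and Rxrg were not above the level on both arrays. Cyp26b1, which degrades retinoic acid, was 1.66-fold higher, at 195 with Nell-1 and 117 with PBS, on its only probe set.

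Only 3 non-coding transcripts of the clusters were measured. Hoxb5os had 99.5 with Nell-1 and 109 with PBS, above the level on both arrays, with a log2 ratio of -0.13. Hoxa11os and Hoxd3os1 were below it, as were Hoxa11 and Hoxd3 beside them. Whether the array's reads of an antisense transcript and its partner overlap was not tested.

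Genes that border the clusters were not all on the side of the nearest Hox gene. At cluster A, Skap2 (1388 with Nell-1 and 1423 with PBS) and Snx10 (473 with Nell-1 and 358 with PBS) next to the anterior end were above the level, and Evx1os and Evx1 next to the posterior end were not. At cluster D, Mtx2 (2082 with Nell-1 and 1574 with PBS) and Nfe2l2 (2299 with Nell-1 and 2541 with PBS) on the anterior side were above it although Hoxd1 and Hoxd3 were not. On the posterior side of cluster D, Evx2 was not above the level on both arrays and Lnpk was, at 577 with Nell-1 and 403 with PBS. All of Calcoco1, Atp5g2, Smug1 and Cbx5 beside cluster C were above it. At cluster B, Ttll6 and Snx11 were above it, and Calcoco2 and Skap1 were not above it on both arrays.

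Other transcription factors of body position were measured as well. Of 20 limb and trunk factors measured, 10 were above the level, beside 57.9% of all genes. On their brightest probe sets 1 of the 10 was at least 1.5-fold lower and none higher. The shares of all genes above the level were 4.69% and 3.36%. Prrx1, a gene of limb mesenchyme, had 7580.5 with Nell-1 and 8659 with PBS, and its relative Prrx2 had 4052 with Nell-1 and 6155 with PBS, 1.52-fold lower. Shox2 was at 0.48, and Pax3 and Pax9 at 0.44. Of the 3 Pax3 probe sets, all above the level, 1 was at least 1.5-fold higher. Tbx5, a forelimb gene, and Tbx4, a hindlimb gene, were below the level on both arrays, and the hindlimb gene Pitx1 was below it with Nell-1 (65.3) and above it with PBS (88.6). Of 12 homeobox and related genes of the head, several of which also act in the limb, 8 were above the level, beside 57.9% of all genes. Among the 8 was Dlx5 (1687 with Nell-1 and 1697 with PBS). The forebrain gene Otx2 was below the level at 1.53 with Nell-1 and 6.18 with PBS. In this list Emx2 (217 with Nell-1 and 383 with PBS) and Six2 (246 with Nell-1 and 415 with PBS) were at least 1.5-fold lower. The share of all genes above the level that were lower was 4.69%. Otx1 was at -0.57 and Dlx1 at 0.40.

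Of 12 measured genes reported as targets or partners of HOX action in limb and cartilage, 4 were above the level, beside 57.9% of all genes. Six2, described above, was lower, and Gli3 (0.27), Efna1 (0.13) and Bmp4 (0.12) did not reach 1.5-fold. Shh, a limb target of posterior HOX proteins, was below the level on both arrays, at 17.2 with Nell-1 and 18.2 with PBS.

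The arrays were close for well-measured genes, with r = 0.984 between log2 signals across the 10531 genes above the level, which are not independent replicates. Chondrocyte markers were above the level for 6 of 15 genes, including Sox9, Sox5, Sox6, Col2a1, Acan and Col11a1, while Comp, Matn1, Hapln1 and the type IX collagen genes were not. Of these 6, 2 were at least 1.5-fold higher with Nell-1, beside 3.36% of all genes above the level. They were Acan at 1.67-fold and Sox6 at 1.62-fold (Sox6 on each of 3 probe sets that passed the level). The median log2 ratio of the 6 was 0.27. Sox9 was at -0.39, lower with Nell-1, where the robust SD was 0.21. Of the Sox5 probe sets above the level, 1 was at least 1.5-fold lower. Mesenchymal markers were above it for 7 of 8 and haematopoietic markers for 0 of 7. Of other lists, 2 of 6 hypertrophic and osteoblast, 1 of 8 epithelial and endothelial and 5 of 8 neural markers were above it. So were 2 of 8 pluripotent and 2 of 8 muscle and adipocyte markers. The share of all genes above the level, beside each of these marker counts, was 57.9%. Among the markers above the level outside the chondrocyte list, Tubb3 (1.51-fold) and Nanog (1.56-fold) were at least 1.5-fold higher. None of these markers was at least 1.5-fold lower. Sox2, in the neural and pluripotent lists, had 2279 with Nell-1 and 2528 with PBS, and Pou5f1 was at 6.34 with Nell-1 and 10.6 with PBS. The 24 poly-A spike-in probe sets were all lower with Nell-1 (median log2 ratio -0.49), and the 18 hybridisation spike-ins had a median of -0.18. Their part in the Hox ratios was not tested.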

How the data were processed

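Total RNA of ATDC5 cells was biotin-labelled and hybridised to Affymetrix mouse arrays, 1 per group. The deposited values are intensities, linear signals per probe set, made by the authors with Affymetrix Expression Console and MAS5, per the submitters' processing notes; no version is given in the sources used here. The trimmed mean (2% from each end) was 500.0 on both arrays, so each had been scaled to a common value. Of 45101 probe sets, 64 were controls, left out of all counts. The remaining 45037 had 1 symbol in the platform annotation for 34945, several for 932 and none for 9160. Columns were assigned by sample name.

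The measure was the log2 ratio of CHX+Nell-1 over CHX+PBS, with no constant added and no test. The robust SD was taken in 10 bins of mean signal with Python 3.11.15 and numpy 2.4.6. The code was checked on simulated arrays. Alternatives were other silent-gene levels, 3 rescalings, an added constant, other probe set rules and a 2-fold threshold. Every Hox gene above the level was named, with up to 4 members of each other list above it by size of log2 ratio. For cell type markers, only chondrocyte genes, those past 1.5-fold and a few that define a type were named. Also named were 2 neighbours on each side of a cluster, and members that show which genes lie below the level. Pbx3, Meis1, Ezh1, Aebp2, Wdr5, Prrx1, Dlx5 and Sox2 were named after their values were seen. The members and lists were chosen with earlier results of these data known. Gene order along clusters came from the RefSeq table of GRCm38.p6.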

Additional observations from a re-analysis of the deposited data

How the results depend on the processing

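The count of 17 Hox genes above the silent-gene level ranged from 12 to 18 over 8 alternatives. Cluster B fell to 3 genes at the 99th percentile of the receptor probe sets. Cluster A fell to 3 genes when every probe set of a gene had to pass, which left out Hoxa3, Hoxa9 and Hoxa10. That rule was added after seeing the data. A count of any passing probe set, also added, gave 17. With a 2-fold threshold 0 genes were lower in place of 1. Without a filter on low signals 4 were at least 1.5-fold higher and 6 at least 1.5-fold lower of 33. The median log2 ratio ran from -0.12 to -0.06. Hoxb4 ran from -0.80 to -0.73. Of 100 values of single genes under alternatives, 99 moved by less than the robust SD of their signal bin, and 7 changed sign, none of them past 1.5-fold. Hoxa5 was at 0.29 when probe set types shared between transcripts were left out. Leaving out a replicate was not possible with 1 array per group. No paired analysis was possible because each group has 1 array. The number of arrays limits the precision.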
